A study of Mus musculus with 16 samples.

Results

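Mouse CD4+ T cells given a synthetic miR-23a were compared with CD4+ T cells given a synthetic miR-27a. The comparison used the 4 libraries titled for miR-23a and the 4 titled for miR-27a, 8 of the 16 libraries of the series, and every gene row of their count tables. The other 8 libraries, of miR-24 and of a control mimic, stayed out of the fit and entered only 1 alternative, a fit of all 16 libraries. Control levels are also described beside the comparison, without a test. Both groups came from C57BL/6 mice with the genotype Dgcr8f/f Tbet-/- CD4-cre. Cre driven by Cd4 removes floxed Dgcr8, a gene needed to process most microRNAs, in T cells, and Tbet is T-bet, the product of Tbx21 and a driver of Th1 cells. Cells were enriched for CD4 from spleen and lymph nodes and activated through CD3 and CD28 for 3 days with 10 U/ml of IL-4. They then rested for 2 days with 20 U/ml of IL-2. A mimic, a double-stranded RNA that stands in for a processed microRNA, was introduced by electroporation at 500 nM on day 1 and again on day 4. Live RosaYFP+CD4+ cells were sorted for RNA, so the cells measured carried the Cre reporter. Per the labels both groups shared all of this and differed in the mimic alone. The labels call the replicates at least biologic triplicates and name no mouse for a library, so p-values measure the spread between libraries, which may be technical.

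A microRNA guides Argonaute proteins to messenger RNAs, mainly through its seed, a short run near its 5′ end that pairs with sites in the 3-prime untranslated region (UTR). Transcripts held in this way are translated less and decay faster. miR-23a and miR-27a are cut from the same primary transcript, which also yields miR-24. In T cells, miR-27 is known as a restraint on Th2 genes, among them the transcription factor gene Gata3, and miR-23a as a restraint on cytotoxic function of CD8+ T cells. Neither group is a control for the other, so each difference below is given as higher or lower with miR-23a than with miR-27a and does not show which mimic moved the gene.

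The mature sequences show how close the seeds are. RefSeq (GRCm38.p6) places both on chromosome 8, plus strand, mmu-miR-23a-3p at chr8:84208563-84208583 and mmu-miR-27a-3p at chr8:84208727-84208747. The labels do not name the arm of the mimics, and the 3p arms were assumed. Capitals mark the seed, positions 2 to 8 counted from 1 at the 5′ end.
miR-23a-3p: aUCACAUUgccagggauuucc
miR-27a-3p: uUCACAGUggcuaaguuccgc
The seeds were identical at 6 of 7 positions and differed by U7G, with the miR-23a base first. Over the whole mature RNA 11 of 21 positions were identical. Through that seed base the longest seed match in a transcript, the 8mer, is AATGTGAA for miR-23a and ACTGTGAA for miR-27a.

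Gene reads ranged from 4086654 to 12582408 in the miR-23a libraries and from 2120408 to 13714841 in the miR-27a libraries, with miR-27a replicates 1 and 2 (2972976 and 2120408) the shallowest. Gene reads did not separate the groups (exact permutation test over 70 relabellings, two-sided, p = 0.371). A read was found for 15083 ± 593 genes with miR-23a and 14234.5 ± 620 with miR-27a (SD, n = 4 each; exact permutation p = 0.114). The share of reads that overlapped more than 1 gene was 0.272% ± 0.0257 with miR-23a and 0.358% ± 0.0454 with miR-27a, without overlap (exact permutation p = 0.0286, the smallest that 4 against 4 libraries allow); its part in the results was not tested. CD4 T cell markers, 10 of 11 of which were in the files, summed to between 4232 and 4992 CPM with miR-23a and between 3775 and 4270 CPM with miR-27a. CPM relates a gene's count to the scaled sum of gene reads in its library. In any of the 8 libraries, markers of B cells summed to at most 24.6 CPM, of myeloid cells to at most 23.4 CPM and of granulocytes and mast cells to at most 2.73 CPM. Dendritic cell markers summed to at most 68.9 CPM, and their sums overlapped between the groups. CD8 T cell markers summed to between 8.91 and 13.1 CPM with miR-23a and between 11.2 and 36.0 CPM with miR-27a. Class II antigen presentation genes summed to between 49.2 and 178 CPM with miR-23a and between 40.7 and 218 CPM with miR-27a, with none of the 8 called. In bulk RNA, fewer cells of a type and less RNA per cell cannot be told apart. Dgcr8 stood at 58.5, 54.8, 46.8 and 51.1 CPM with miR-23a and 58.6, 48.7, 40.4 and 33.5 CPM with miR-27a, which does not check the genotype because the count does not show the deleted part. Tbx21 reached at most 5.32 CPM and was too low to test.

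Between the mimics, the levels differed for 428 of 11938 genes tested, of which 144 were higher and 284 lower with miR-23a (edgeR's quasi-likelihood test with the replicate number as a block, Benjamini-Hochberg adjusted p under 0.05). That is 3.59% of the genes tested, 1.21% higher and 2.38% lower. The typical called gene differed by 1.19 on the log2 scale (median of absolute values), and 289 called genes, 96 higher and 193 lower, differed by more than 2-fold. All 4 same-numbered pairs had the same sign for 422 of the 428. The levels of the 4 libraries of each group did not overlap for 824 genes (6.9% of those tested), 370 higher and 454 lower, and 259 of these were called. The median difference over all genes tested was 0.02, a centre that the scaling of the libraries sets near 0. Without the replicate block 37 genes were called (0.31%), 7 higher and 30 lower, and all 37 were among the 428. Without replicate 1, 3 or 4, the counts were 77, 117 and 982.

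**Figure D1:**
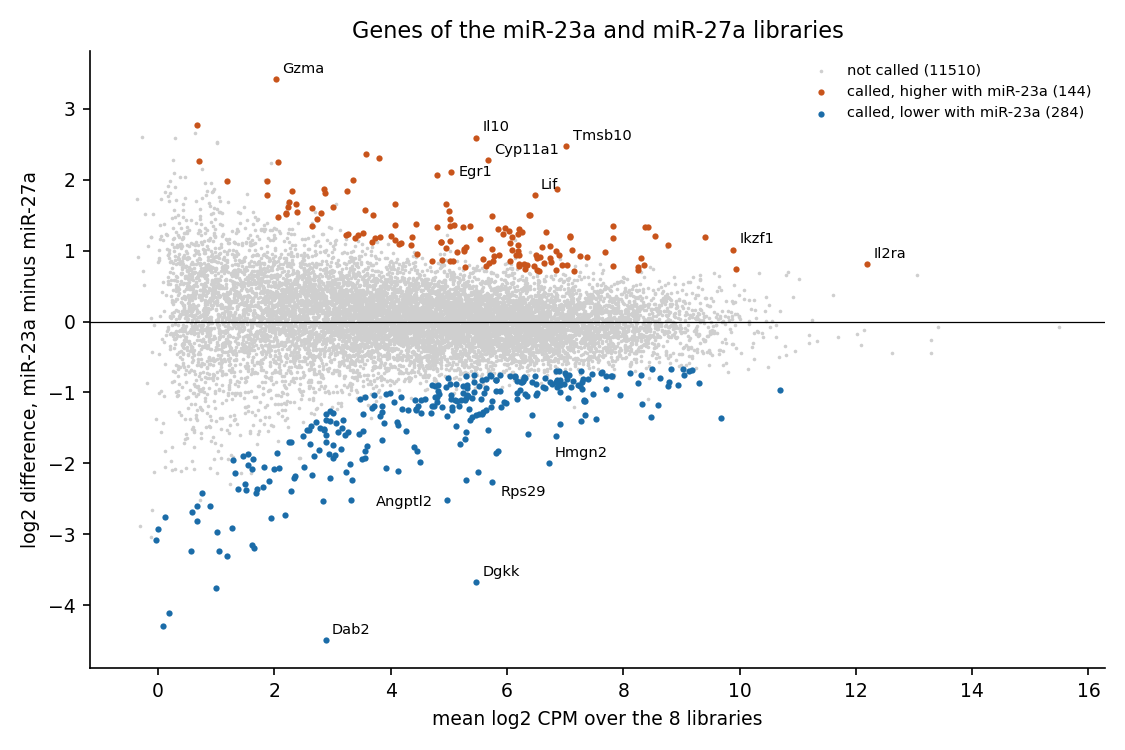
Log2 difference (miR-23a minus miR-27a, vertical axis) of each of the 11938 genes tested against its mean log2 CPM over the 8 libraries (horizontal axis); orange points are the 144 genes called higher with miR-23a, blue points the 284 called lower and grey points the genes not called. Il2ra, a highly expressed gene, lies at 0.81 and Ikzf1 at 1.01, while Dgkk lies at -3.67.

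Genes with sites of miR-23a alone and genes with sites of miR-27a alone had medians on opposite sides of 0, each lower with the mimic that its sites match. The longest 3-prime UTR in the annotation, found for 11181 of the tested genes, was read for 8mers and 7mers, the latter being the first (7mer-m8) or last (7mer-A1) 7 bases of the 8mer. Among the 1556 genes with sites of miR-23a alone, the median difference was -0.11, 94 were called lower (6.04%) and 8 higher, and 60.3% lay below 0. Among the 2052 genes with sites of miR-27a alone, the median was 0.13, 70 were called higher (3.41%) and 25 lower, and 63.5% lay above 0. The 1289 genes with sites of both had a median of -0.02, with 18 called higher and 49 lower. The 6284 genes with neither had a median of 0.01, with 45 called higher (0.716%) and 115 lower (1.83%), beside a median of 0.01, 1.26% called higher and 2.53% called lower over all genes searched. In each of the 4 same-numbered pairs the median was negative for genes with miR-23a sites alone (-0.15 to -0.08) and positive for those with miR-27a sites alone (0.10 to 0.14).

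**Figure D2:**
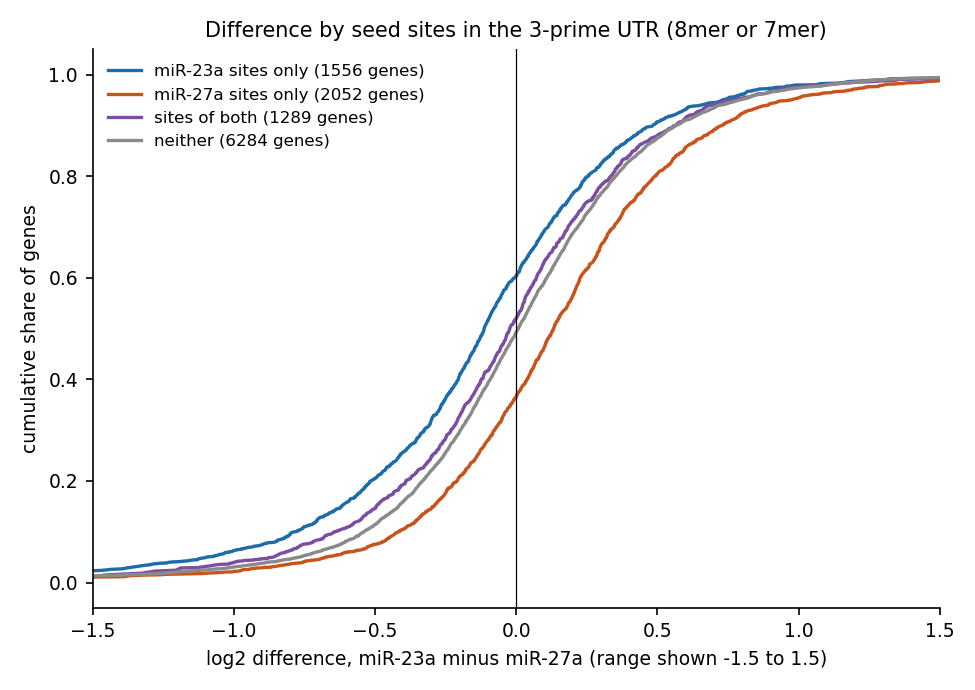
Cumulative share of genes (vertical axis) by log2 difference, miR-23a minus miR-27a (horizontal axis), for genes with 8mer or 7mer sites of miR-23a alone (blue, 1556), of miR-27a alone (orange, 2052), of both (purple, 1289) or of neither (grey, 6284). The blue curve lies to the left of the grey one and the orange curve to its right over most of the range.

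The medians were ordered by the length and the number of the sites. Genes whose best site was an 8mer of miR-23a, with no 8mer or 7mer of miR-27a, had a median of -0.19 (443 genes, 49 called lower and 1 higher). The median was -0.11 for a 7mer-m8 (599 genes), -0.05 for a 7mer-A1 (514) and -0.00 for the inner 6 bases alone, the 6mer (949). The matching classes of miR-27a had medians of 0.28 for an 8mer (416 genes, 39 called higher and 4 lower), 0.14 for a 7mer-m8 (783), 0.07 for a 7mer-A1 (853) and 0.02 for a 6mer (1570). With 1, 2 or at least 3 sites of miR-23a, the medians were -0.10, -0.13 and -0.17 (1216, 269 and 71 genes). They were 0.11, 0.23 and 0.30 for miR-27a (1602, 343 and 107 genes). Classes with more sites also had longer UTRs, with a median of 1611 bases for 1 site of miR-23a and 3490 bases for 3 or more, and the part of UTR length in the medians was not tested. The searched genes hold an 8mer of miR-23a in 7.33% of cases (820) and one of miR-27a in 6.65% (743). Of the 283 searched genes that were lower with miR-23a, 28.3% (80) held its 8mer and 3.53% (10) that of miR-27a. Of the 141 that were higher, 35.5% (50) held the 8mer of miR-27a and 4.96% (7) that of miR-23a. An 8mer of each was found in 96 genes, of which 3 were called higher and 3 lower. Neither 8mer nor 7mer was found for 115 of the genes called lower and 45 of those called higher. Without replicate 1, 20 genes with an 8mer of miR-23a were called lower and 5 with one of miR-27a higher, and without replicate 3 the counts were 26 and 11.

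**Figure D3:**
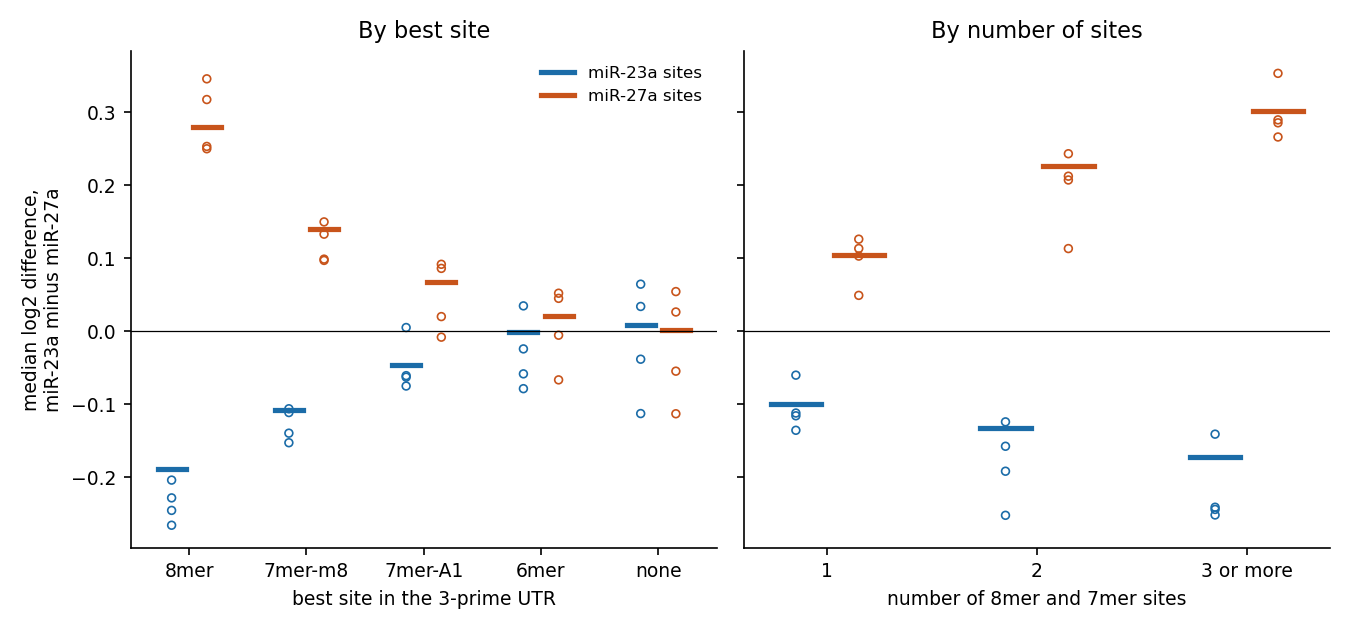
Median log2 difference, miR-23a minus miR-27a (vertical axis), of genes grouped by their best site (left) or by the number of 8mer and 7mer sites (right), in blue for miR-23a and orange for miR-27a; bars are medians of the fitted differences and open circles medians within each same-numbered pair of libraries. All 8 circles of the 8mer classes lie on the side of their bar, with medians of -0.19 and 0.28.

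The genes with the smallest adjusted p among those with an 8mer of 1 mimic and no 8mer of the other carried these sites (GENCODE M21, GRCm38, all in the annotated 3-prime UTR). For miR-23a they were Rai14 (chr15:10569235-10569242, minus strand), Sh3bgrl (chrX:109160313-109160320, plus), Rps29 (chr12:69157731-69157738, minus), Rras2 (chr7:114047744-114047751, minus), Hmgn2 (chr4:133964955-133964962, minus) and Ssx2ip (chr3:146439809-146439816, plus). They are shown in transcript direction because they carry the clearest differences, with the 8mer in capitals and 8 bases on either side. Rai14 also holds a 7mer of miR-27a, and Nipal1 and Snap29, shown after it, each hold a 7mer of miR-23a.
Rai14: cccaaagaAATGTGAAaggatttg
Sh3bgrl: ataatgaaAATGTGAAcatggtgg
Rps29: agaataaaAATGTGAAgaacttta
Rras2: tttttttaAATGTGAAtttttgcc
Hmgn2: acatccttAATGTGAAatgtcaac
Ssx2ip: aataagacAATGTGAAgcattgac
For miR-27a, Tmsb10 (chr6:72957500-72957507, minus), Nipal1 (chr5:72669669-72669676, plus), Alg11 (chr8:22071387-22071394, plus) and Pla2g6 (chr15:79286248-79286255, minus) follow, with Ikzf1 (chr11:11772859-11772866, plus) as a highly expressed gene and the pair of Snap29 sites (chr16:17428525-17428532 and chr16:17428676-17428683, plus).
Tmsb10: caagctgcACTGTGAAacccgggc
Nipal1: atatagaaACTGTGAAcacgtttg
Alg11: ataacacaACTGTGAAgtatccgt
Pla2g6: ccacctcaACTGTGAAataaacgg
Ikzf1: tggcactcACTGTGAAtaagtgtg
Snap29 site 1: gctgagtaACTGTGAAcaccttga
Snap29 site 2: gaggccttACTGTGAAttcagatg

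Genes with a miR-27a 8mer that were higher with miR-23a spanned the cytoskeleton, membrane transport and transcription. Tmsb10, which encodes a thymosin that binds actin monomers, stood at 747, 274, 237 and 182 CPM with miR-23a (replicates 1 to 4 here and below) and 73.5, 43.5, 52.9 and 52.8 CPM with miR-27a. Every miR-23a library lay above every miR-27a library, and the log2 difference was 2.48 ± 0.24 (SE, 4 against 4 libraries here and below; edgeR adjusted p = 7.63e-05). Ikzf1, the gene of the transcription factor Ikaros, stood at 1321, 1276, 1429.7 and 1363 CPM with miR-23a and 654, 661, 549 and 838 CPM with miR-27a. Its groups did not overlap (1.01 ± 0.18, edgeR adjusted p = 0.00573), although the call was lost without replicate 1 or 3 (adjusted p up to 0.0993). Alg11, a mannosyltransferase of protein glycosylation, stood at 88.6, 97.9, 90.1 and 98.9 CPM and at 38.5, 36.4, 35.3 and 50.6 CPM, again without overlap (1.23 ± 0.19, edgeR adjusted p = 0.00262). Nipal1, a magnesium transporter gene, differed by 2.36 ± 0.30 and Pla2g6, a calcium-independent phospholipase gene, by 1.84 ± 0.30, both without overlap (edgeR adjusted p = 0.000535 and 0.00289). Snap29, whose product joins membranes during autophagy, ranged from 49.0 to 62.9 CPM with miR-23a and from 16.2 to 31.6 CPM with miR-27a (1.36 ± 0.24, edgeR adjusted p = 0.00453, and 0.0735 without replicate 1). Aff4, a scaffold of the super elongation complex, and Mdn1, a ribosome assembly factor, complete the 6 of smallest adjusted p, with 1.08 ± 0.18 and 1.19 ± 0.20. The call of Mdn1 was lost without replicate 1 (edgeR adjusted p = 0.0504). Aff4 also holds a 7mer-m8 and a 7mer-A1 of miR-23a.

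Genes with a miR-23a 8mer that were lower with miR-23a included a nucleosome-binding protein, a small GTPase and a ribosomal protein. Hmgn2, which encodes the nucleosome-binding protein, stood at 77.2, 38.3, 42.0 and 61.1 CPM with miR-23a and 280.0, 273, 203 and 125 CPM with miR-27a. The groups did not overlap, with a log2 difference of -1.99 ± 0.25 (edgeR adjusted p = 0.000544). Rras2, a Ras-related GTPase gene, stood at 34.6, 27.0, 28.1 and 30.5 CPM with miR-23a and 85.1, 75.7, 94.4 and 91.2 CPM with miR-27a. Its libraries were tight within each group and far apart between them (-1.53 ± 0.20, edgeR adjusted p = 0.000535). Sh3bgrl, a small thioredoxin-fold protein gene, stood at 20.4, 36.7, 32.3 and 31.5 CPM against 74.8, 98.9, 123 and 139 CPM (-1.85 ± 0.20, edgeR adjusted p = 0.000132). Ssx2ip, whose product anchors microtubules at centrosomes, ranged from 8.61 to 14.3 CPM and from 37.0 to 52.0 CPM (-1.82 ± 0.25, edgeR adjusted p = 0.000975). Neither gene had overlapping groups. Rps29, of the small ribosomal subunit, ranged from 14.6 to 37.2 CPM against 72.1 to 141 CPM (-2.26 ± 0.21, edgeR adjusted p = 3.91e-05). Rai14, an actin-associated protein gene, stood at 10.9, 10.4, 40.5 and 47.7 CPM against 68.6, 40.2, 176 and 162 CPM, so that replicates 1 and 2 were low in both groups and the groups overlapped while every pair differed in the same direction (-2.12 ± 0.21, edgeR adjusted p = 7.25e-05). Tmsb10, Hmgn2 and the ribosomal protein genes have near-identical copies in the genome that reads could be shared with, so their counts are less certain.

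**Figure D4:**
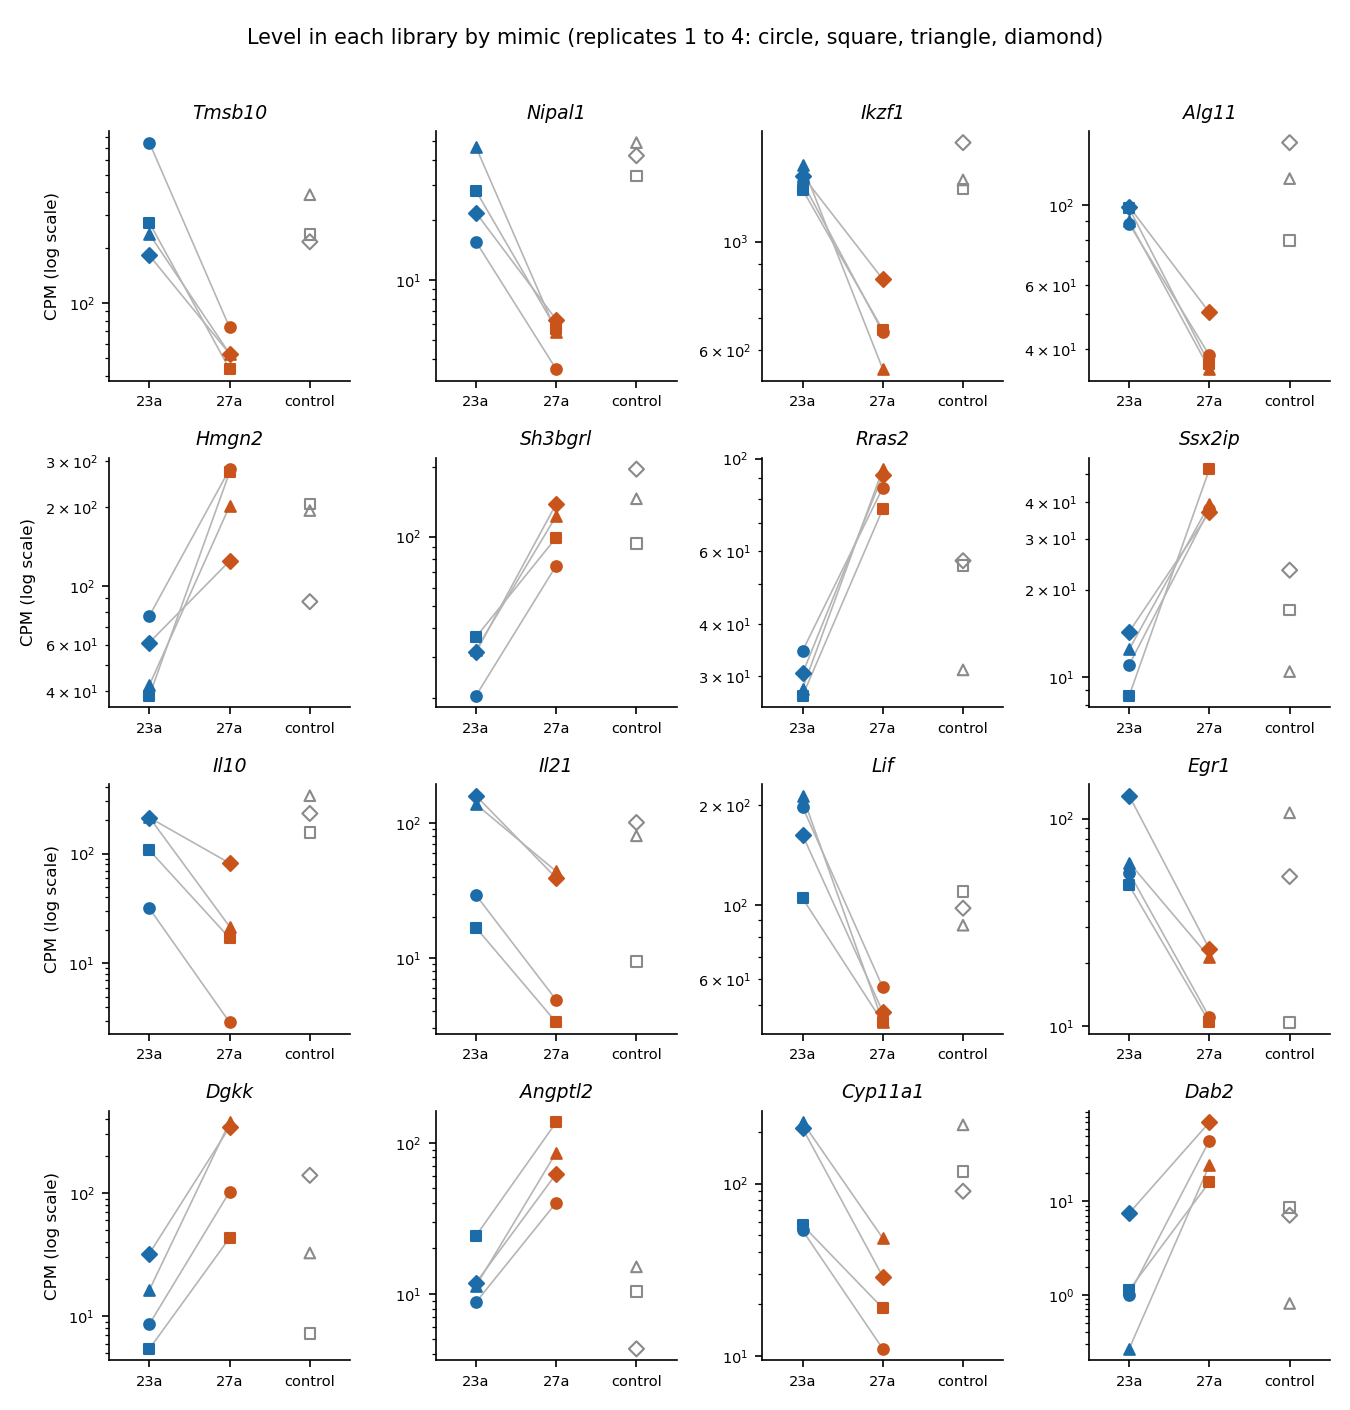
CPM (log scale, vertical axis) of 16 genes in the miR-23a libraries (blue), the miR-27a libraries (orange) and control replicates 2 to 4 (open grey); grey lines join same-numbered libraries and the marker shape gives the replicate number. The top row holds genes with a miR-27a 8mer, the second row genes with a miR-23a 8mer, and the lines of all 16 genes run in the same direction within each panel. Many of these genes were chosen for the same sign in all 4 same-numbered pairs.

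Several of the largest differences were in genes without an 8mer of either mimic. Dgkk, a diacylglycerol kinase gene, stood at 8.62, 5.44, 16.3 and 32.2 CPM with miR-23a and 102, 43.1, 374 and 342 CPM with miR-27a. Its difference of -3.67 ± 0.25 had the smallest adjusted p of all genes tested (edgeR, 2.09e-06). Dab2, an endocytic adaptor gene, stood at 1.01, 1.13, 0.265 and 7.49 CPM against 44.7, 16.1, 24.4 and 70.2 CPM (-4.48 ± 0.44, edgeR adjusted p = 0.000108). Angptl2, a secreted angiopoietin-like protein gene, ranged from 8.80 to 24.2 CPM against 40.1 to 137 CPM (-2.51 ± 0.22, edgeR adjusted p = 2.36e-05). The groups of these 3 genes did not overlap. Also lower with miR-23a were Myof, a membrane repair protein gene (-2.51 ± 0.28), Arhgap5, a GTPase-activating protein (-1.98 ± 0.26), Hap1 (-1.87 ± 0.31) and Xdh, the purine-degrading xanthine dehydrogenase (-1.82 ± 0.23), with edgeR adjusted p from 0.000145 to 0.00312. Of the genes of this paragraph, Arhgap5 holds 3 miR-23a 7mers, and Dab2 and Dgkk hold 1 each. Aqp3, a water and glycerol channel, differed by -2.06 ± 0.44 (edgeR adjusted p = 0.0236, and 0.136 without replicate 1).

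On the other side, Cyp11a1, the enzyme that starts steroid synthesis from cholesterol, stood at 53.4, 57.3, 227 and 209 CPM with miR-23a and 11.0, 18.9, 48.2 and 28.8 CPM with miR-27a. Replicates 3 and 4 were the highest of the miR-23a group, and no miR-27a library reached its lowest value (2.27 ± 0.23, edgeR adjusted p = 7.25e-05). Lif, a cytokine of the IL-6 family, stood at 197, 105, 213 and 162 CPM against 56.6, 44.5, 44.6 and 47.8 CPM (1.78 ± 0.20, edgeR adjusted p = 0.000158), and its gene holds a miR-27a 7mer-m8. Unc13a, a vesicle priming factor (2.30 ± 0.32), Epcam, an adhesion molecule (1.99 ± 0.32), and Tasp1, a protease that cuts MLL proteins (1.55 ± 0.22), were higher without overlap (edgeR adjusted p from 0.000919 to 0.0027). Tox2, Cxadr and Asb2 were higher as well (1.65 ± 0.34, 1.58 ± 0.31 and 1.51 ± 0.29), each with a call that was lost without replicate 1 or 3 (edgeR adjusted p up to 0.153, 0.0991 and 0.0969). Of this group Cxadr, a junction protein, holds an 8mer of miR-27a, beside 7mers of miR-23a.

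Th2 cytokines and regulators were the list with the most calls. Like the other lists, it was chosen with earlier results of these data known, so its counts are not independent evidence of a direction. Of its 32 tested members, 8 were higher with miR-23a (Il10, Il2ra, Ikzf1, Ccr8, Il17rb, Rara, Pparg and Ecm1) and 1 was lower (Il9), and 26 differences were positive, with a median of 0.41 against 0.02 over all genes tested. Over all genes tested, 1.21% were called higher, 2.38% lower and 52.5% of differences were positive. The median of the Th2 list was positive in each pair (0.83, 0.14, 0.58 and 0.14). Il10, an anti-inflammatory cytokine gene, stood at 31.7, 107, 213 and 213 CPM with miR-23a and 2.91, 17.0, 21.6 and 81.8 CPM with miR-27a. Replicate 1 was the lowest of each group and the groups overlapped, while all 4 pairs differed in the same direction (2.59 ± 0.31, edgeR adjusted p = 0.000458). Pparg, a lipid-sensing nuclear receptor used by Th2 cells, stood at 47.0, 56.6, 103 and 245 CPM against 11.0, 14.7, 68.9 and 83.5 CPM, with overlap (1.48 ± 0.25, edgeR adjusted p = 0.00375, and 0.0562 without replicate 1). Il2ra, the alpha chain of the IL-2 receptor, ranged from 4541 to 9448 CPM against 2423 to 7071 CPM (0.81 ± 0.20, edgeR adjusted p = 0.0366), and lost its call without replicate 1, 2 or 3 (up to 0.316). Ccr8, a chemokine receptor of Th2 cells, did so without replicate 1 or 3 (2.25 ± 0.55, edgeR adjusted p = 0.0383, up to 0.379). Pparg, Ikzf1 and Il2ra hold an 8mer of miR-27a.

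The classical Th2 cytokine genes Il4, Il5 and Il13 did not pass the test. Il4 stood at 7.24, 22.7, 27.3 and 21.3 CPM with miR-23a and 7.77, 21.3, 19.7 and 30.0 CPM with miR-27a, with a log2 difference of -0.01 ± 0.26 (edgeR adjusted p = 0.994). Il13 stood at 36.1, 36.7, 114 and 194 CPM against 25.2, 22.7, 669 and 219 CPM (-0.40 ± 0.45, edgeR adjusted p = 0.714), and Il5 at no more than 8.34 CPM in any library (0.40 ± 0.39, 0.665). For both genes replicates of 1 group differed more than the groups did. Gata3, which encodes the transcription factor that defines Th2 cells, stood at 217, 189.8, 405 and 274 CPM against 98.7, 100.3, 232 and 262 CPM. Its difference of 0.73 ± 0.20 fell just short of the threshold (edgeR adjusted p = 0.0531), and DESeq2, limma and edgeR without the filter on low counts or without replicate 4 called it. Other regulators did not pass the test, with differences of 0.16 ± 0.26 for Maf, 0.10 ± 0.20 for Il4ra, 0.01 ± 0.18 for Stat6, 0.02 ± 0.18 for Irf4, 0.27 ± 0.20 for Nfatc2, 0.30 ± 0.25 for Tcf7 and 0.63 ± 0.22 for Epas1 (edgeR adjusted p from 0.139 to 0.982). Irf4 holds an 8mer of miR-27a, beside 7mers of miR-23a. Maf and Epas1 hold an 8mer of miR-23a, and Epas1 also a 7mer of miR-27a.

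Genes of other T helper states differed singly, where 1.21% of all genes tested were called higher and 2.38% lower. Il21, a cytokine of follicular helper and Th17 cells, stood at 29.2, 16.8, 139 and 160.3 CPM with miR-23a and 4.86, 3.31, 43.9 and 39.2 CPM with miR-27a. Replicates 3 and 4 were high in both groups, so the groups overlapped, and every pair was higher with miR-23a (2.06 ± 0.23, edgeR adjusted p = 0.000145). Among 11 tested Th1 and cytotoxic genes, Gzma, the protease granzyme A, was higher (3.42 ± 0.43, edgeR adjusted p = 0.000456). Its levels were low, from 1.59 to 31.1 CPM with miR-23a and from 0.473 to 2.26 CPM with miR-27a, and the groups overlapped. The lowest value, in miR-27a replicate 2, was a single read. Of the fits that left out a replicate number, only 3 tested Gzma, and each of them called it. Eomes, a transcription factor related to T-bet, stood at 9.99, 17.0, 2.65 and 0.612 CPM with miR-23a and 33.7, 59.6, 7.54 and 15.9 CPM with miR-27a (-2.24 ± 0.41, edgeR adjusted p = 0.00808, and 0.0602 without replicate 1). Eomes makes up nearly all of the NK cell marker sum, from 0.765 to 17.0 CPM with miR-23a and from 7.77 to 60.1 CPM with miR-27a, while 5 of the 8 NK markers had no read in any of the 8 libraries. Its gene holds an 8mer of miR-23a. Il18rap, a chain of the IL-18 receptor, was lower (-1.25 ± 0.27, edgeR adjusted p = 0.0171, up to 0.158 without replicate 1 or 3). Of 7 Th17 genes tested, Il21 and Ahr, the aryl hydrocarbon receptor, were higher, but the call of Ahr (1.54 ± 0.40, edgeR adjusted p = 0.0414) was lost whichever replicate number was left out (up to 0.355). Ahr holds an 8mer of miR-27a. Of 13 regulatory T cell genes, Il2ra was higher and Nrp1, a semaphorin co-receptor, lower (-1.12 ± 0.24, edgeR adjusted p = 0.0177, and 0.157 without replicate 1).

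Single genes of activation and signalling differed in both directions. The counts below stand beside 1.21% called higher and 2.38% lower over all genes tested. Egr1, an immediate-early transcription factor gene, stood at 54.8, 47.6, 61.4 and 129 CPM with miR-23a and 11.0, 10.4, 21.4 and 23.5 CPM with miR-27a. The groups did not overlap (2.10 ± 0.23, edgeR adjusted p = 0.000142), and Cd69, an early activation receptor, was higher too (1.06 ± 0.19, edgeR adjusted p = 0.00519, and 0.0735 without replicate 1). Egr2, of the same family as Egr1, was lower (-0.90 ± 0.20, edgeR adjusted p = 0.0186, up to 0.115 without replicate 1, 2 or 3). The EGR, NR4A and early activation list had 2 higher and 1 lower of 29 tested, with a median of 0.02. Of 39 T cell receptor and CD28 signalling genes, 1 was called: Ubash3a, a phosphatase-like inhibitor of receptor signalling that holds an 8mer of miR-27a, was higher (1.45 ± 0.25, edgeR adjusted p = 0.00455, up to 0.0694 without replicate 1 or 3). Calm3, a calmodulin gene, and Itpr1, a calcium channel of the endoplasmic reticulum, were higher among 38 calcium and NFAT genes (1.23 ± 0.20 and 0.74 ± 0.18), with calls lost without replicate 1 (edgeR adjusted p = 0.0589) and without replicate 1, 2 or 3 (up to 0.243). Of the IL-2 and STAT5 list, Stat5b, which holds an 8mer of miR-23a, and Socs2, a STAT5-induced inhibitor of cytokine signalling, were lower (-0.88 ± 0.20 and -0.85 ± 0.19, edgeR adjusted p = 0.0219 and 0.02), and both lost their calls without replicate 1 or 3, Stat5b also without replicate 2 (up to 0.243 and 0.166).

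Growth and survival pathways held a few calls each, beside 1.21% called higher and 2.38% lower over all genes tested. Of 32 genes tested in the FOXO, PI3K and mTOR list, 3 were called, all lower, among them Eif4ebp2, a brake on translation, and Sgk1, a kinase of the PI3K pathway, and the list's median was 0.13. Eif4ebp2 and Sgk1 (-0.85 ± 0.22 and -1.06 ± 0.28) lost their calls without replicate 1, 2 or 3, and Eif4ebp2 also without replicate 4 (edgeR adjusted p up to 0.214 and 0.389). Eif4ebp2 holds an 8mer of miR-23a. Chuk, the kinase IKK-alpha of NF-kB signalling, was lower (-0.83 ± 0.20, edgeR adjusted p = 0.0279, up to 0.175 without replicate 1, 2 or 3) and holds an 8mer of miR-23a. Among 28 BCL2 family and caspase genes, 1 was higher, Casp6, and 2 were lower, among them Bcl2l11, the pro-apoptotic BIM (0.99 ± 0.23 and -0.80 ± 0.19), and the call of Casp6 was lost without replicate 1, 3 or 4 and that of Bcl2l11 without replicate 1, 2 or 3 (edgeR adjusted p up to 0.123 and 0.113). Xiap, a caspase inhibitor with an 8mer of miR-23a and a 7mer of miR-27a, stood at -0.59 ± 0.18 (edgeR adjusted p = 0.0849, while DESeq2 called it).

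Lists of targets reported for each family elsewhere gave these counts. Over all genes tested, 1.21% were called higher, 2.38% lower and 52.5% of differences were positive. Of 32 tested genes reported for miR-27, 5 were higher with miR-23a (Pparg, Fbxw7, Ikzf1, Il10 and Sfrp1) and 1 lower (Egr2), with 22 positive differences and a median of 0.31. Of 26 reported for miR-23, 3 were lower, among them Chuk and Hmgn2, and none higher, with 12 positive and 14 negative differences and a median of -0.10 (0.09, -0.08, -0.22 and -0.14 in the pairs). Ppif and Tab3, in the second list, stood at -0.20 ± 0.38 and 0.10 ± 0.21, and each holds 8mers of both mimics. These lists were chosen with earlier results of these data known and are not independent evidence of a direction. Pparg, Ikzf1 and Il10 are also members of the Th2 list, so both lists count them.

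Differences of respiratory chain and cell cycle genes were mostly negative. Of 63 respiratory chain and ATP synthase genes tested, 6 were called, all lower (Uqcrfs1, Cox7b, Atp5b, Atp5e, Atp5f1 and Atp5l), 54 differences were negative and the median was -0.30, beside 2.38% called lower and 5675 of 11938 negative over all genes tested. The pair medians were -0.12, -0.60, -0.68 and 0.02, so replicate 4 did not share the shift. Atp5f1, a stalk subunit of ATP synthase, stood at 16.8, 17.4, 23.5 and 31.4 CPM with miR-23a and 49.9, 65.8, 81.5 and 80.1 CPM with miR-27a (-1.65 ± 0.21, edgeR adjusted p = 0.000478). Its groups did not overlap, whereas those of Atp5b, the catalytic beta subunit, did (-0.96 ± 0.23, edgeR adjusted p = 0.0337, up to 0.281 without replicate 1, 2 or 3). Of 35 mitosis genes, 32 differences were negative (median -0.33), with Iqgap3, a scaffold protein of dividing cells, lower (-1.20 ± 0.19, edgeR adjusted p = 0.00293) and Cdc25b, a phosphatase that starts mitosis, higher (0.84 ± 0.22, edgeR adjusted p = 0.0461, up to 0.293 without replicate 1 or 3). Of 42 DNA replication genes, 34 were negative (median -0.27) and Pcna, the polymerase clamp, was the 1 called (-0.68 ± 0.18, edgeR adjusted p = 0.0451, up to 0.308 without replicate 1, 2 or 3). Cytosolic ribosomal protein genes had a median of -0.16 with 3 of 56 lower (Rpl24, Rpl38 and Rps29), of which Rps29 kept its call without each replicate number, and in replicate 4 their median was 0.28. Mitochondrial ribosomal protein genes had a median of 0.04 and 1 call, Mrps33, higher (1.36 ± 0.25, edgeR adjusted p = 0.00644, and 0.0772 without replicate 1). In the cholesterol and fatty acid list, 4 were lower (Insig1, Hmgcs1, Idi1 and Fads2) and 1 higher (Scd2) of 37, with a median of -0.12. Insig1, which holds back cholesterol synthesis, and the synthesis enzymes Hmgcs1 and Idi1 lost their calls without replicate 3 and without replicate 2 (Insig1, Hmgcs1) or 1 (Idi1; edgeR adjusted p up to 0.179).

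**Figure D5:**
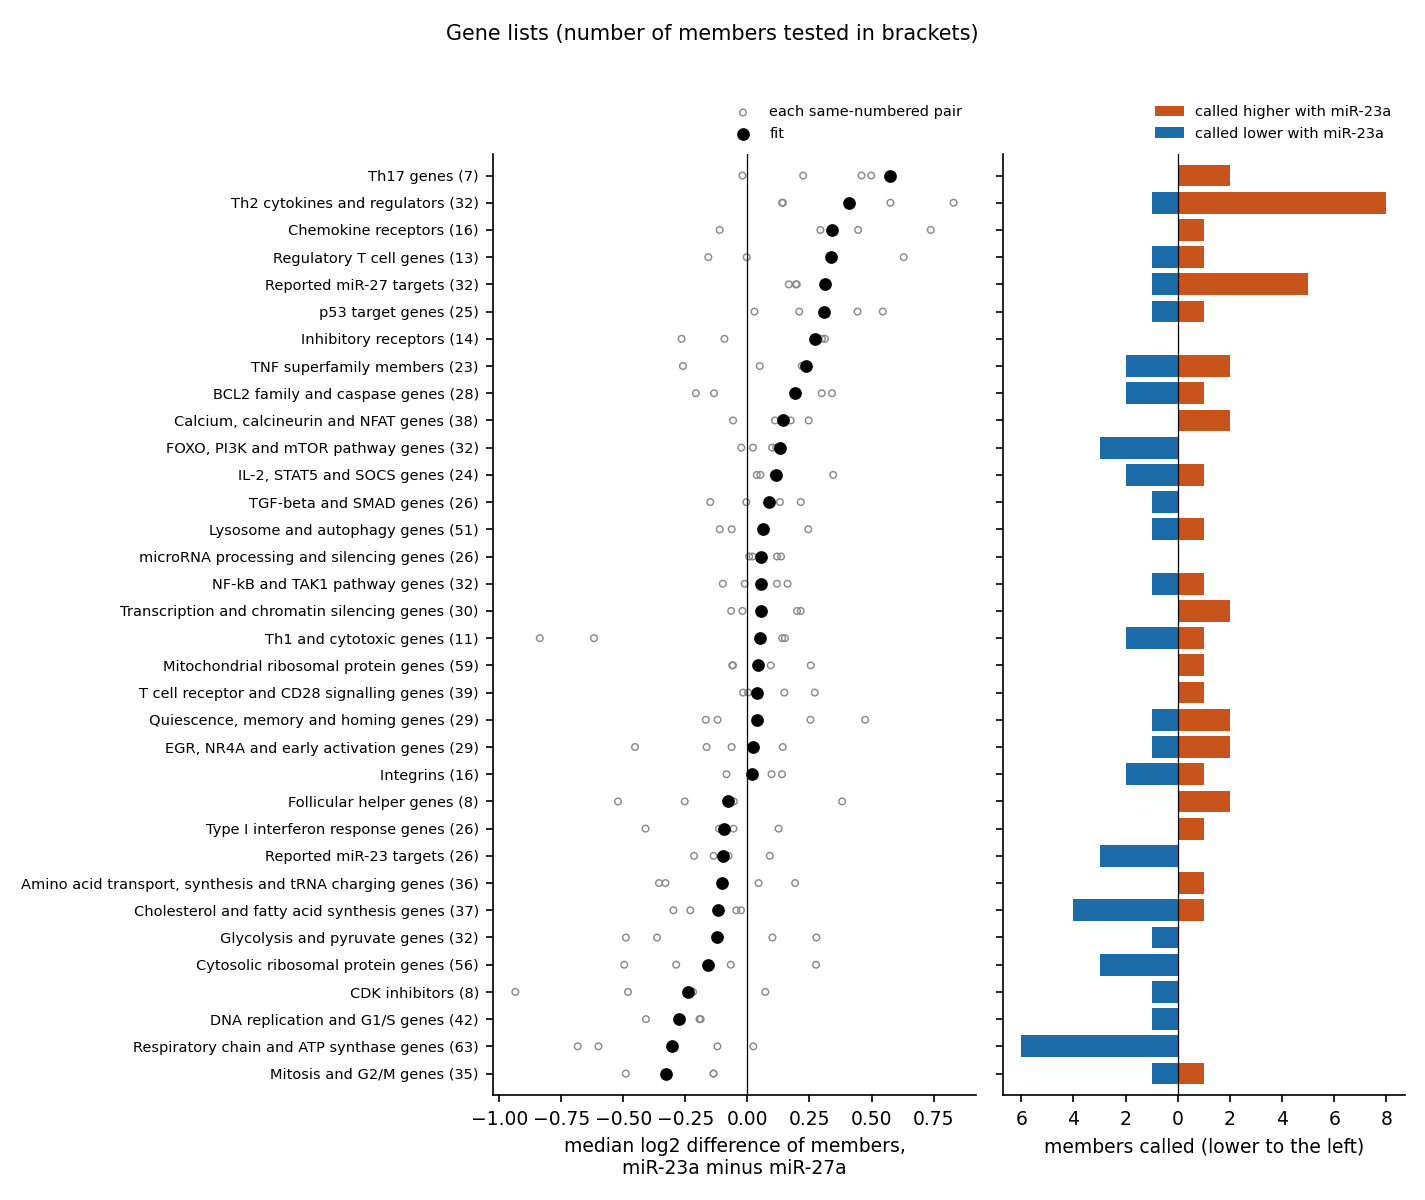
Left, median log2 difference (miR-23a minus miR-27a, horizontal axis) of the tested members of each of 34 gene lists, as fitted (black) and within each same-numbered pair (open circles); right, the number of members called higher (orange, to the right) and lower (blue, to the left). The Th2 list has 8 members to the right, the respiratory chain list 6 to the left, and the pair medians of many lists lie on both sides of 0.

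Receptors and adhesion molecules differed in both directions. Itgb3, the integrin beta-3 chain, stood at 657, 575, 603 and 378 CPM with miR-23a and 201, 301, 156 and 232 CPM with miR-27a, without overlap (1.33 ± 0.22, edgeR adjusted p = 0.00359, and 0.0678 without replicate 1). Itga5 and Itga6, integrin alpha chains, were lower (-1.60 ± 0.32 and -0.77 ± 0.20), with calls lost without replicate 1 or 3 and, for Itga6, also without replicate 2 (edgeR adjusted p up to 0.106 and 0.258). Itga5 holds an 8mer of miR-27a, whereas most called genes with that 8mer were higher with miR-23a. In the TNF superfamily, Cd27, a co-stimulatory receptor (1.66 ± 0.31), and Tnfrsf8, which is CD30, were higher, while Tnfsf8, the ligand of CD30, and Tnfsf11, which is RANKL, were lower (-0.77 ± 0.19 and -1.07 ± 0.26). The call of Cd27 was lost without replicate 1 (edgeR adjusted p = 0.0833), and those of Tnfsf8 and Tnfsf11 without replicate 1, 2 or 3 (up to 0.218 and 0.233). Of 25 p53 target genes, 19 differences were positive (median 0.31), beside 52.5% positive over all genes tested. In that list Btg2, an antiproliferative gene, was higher and Eda2r, a death receptor, lower (1.28 ± 0.27 and -1.43 ± 0.33, edgeR adjusted p = 0.0157 and 0.0243, up to 0.109 and 0.322 without replicate 1 or 3). Btg2 holds an 8mer of miR-27a.

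Over the 34 lists, 911 of 995 members were tested, 32 were called higher and 39 lower, and their median was -0.04, beside 1.21% higher, 2.38% lower and a median of 0.02 over all genes tested. At least 1 member was called in 32 lists; none was called among 14 inhibitory receptor genes or 26 microRNA processing and silencing genes.

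The control libraries, which lie outside the comparison, add a level for each gene. Control replicate 1 held 51474 gene reads, so that a single read was worth 14.9 CPM, and replicates 2 to 4 are described here. The mimic means set beside them cover replicates 1 to 4, and the same count was not made over all genes tested. The counts below therefore do not show which mimic moved a gene. The mean of control replicates 2 to 4 was nearer, on the log2 scale, to miR-23a for 120 of the 144 genes called higher and nearer to miR-27a for 24. Of the 50 that hold a miR-27a 8mer, 45 lay nearer to miR-23a, as did 37 of the 45 with no 8mer or 7mer of either. Among the 284 called lower, the control was nearer to miR-23a for 165 and to miR-27a for 119. Of the 80 of these with a miR-23a 8mer, 53 lay nearer to miR-27a, and of the 115 with no 8mer or 7mer of either, 89 lay nearer to miR-23a. Ikzf1 stood at 1280.0, 1336 and 1592 CPM in control replicates 2 to 4, within or above its miR-23a range, and Hmgn2 at 206, 195 and 87.5 CPM, above its miR-23a range. Angptl2 stood at 10.4, 15.1 and 4.33 CPM, within or below its miR-23a range and below every miR-27a library. Dgkk stood at 7.27, 32.5 and 139 CPM, which reaches from the miR-23a range into that of miR-27a.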

How the data were processed

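Gene counts were deposited per library as whole reads per gene symbol, not normalized. Tools named by the submitters' processing notes are TopHat, Bowtie2 and DESeq, with the build mm10 and no versions. The counter, annotation and strand setting are not given in the sources used here. Per the labels, 1 ng of total RNA was amplified (NuGEN Ovation V2) and sequenced on a HiSeq instrument as single 50-nt reads, 4 libraries per lane. The 5 closing lines that name no gene, such as reads in no gene, held 64.6% to 76.0% of the reads of these 8 libraries and were left out.

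Genes passing edgeR's filterByExpr were fitted (edgeR 4.0.16, R 4.3.3, TMM scaling, group plus replicate number, quasi-likelihood test, Benjamini-Hochberg adjustment, threshold 0.05). CPM use TMM-scaled library sizes, and mean log2-CPM a prior count of 2. The edgeR fit was tested on simulated counts, and the search for sites and the counts by list were not. The replicate number was kept as a block because same-numbered libraries deviated together from their group means in the 4952 genes with mean log2-CPM above 5 (r = 0.631, 0.264, 0.659 and 0.286 for numbers 1 to 4). The own number was the best match for 3 of 4 miR-23a and 4 of 4 miR-27a libraries. The labels do not say what a shared number marks. Alternatives were the fit without the block, all 16 libraries, RLE scaling, no filter, DESeq2 1.42.0, limma 3.58.1, counts thinned to the smallest library, the shortest UTR and leaving out each replicate number. Replicates 3 and 4 alone were added after seeing the data.

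UTRs came from GENCODE M21 on GRCm38. Of the gene symbols, 20953 matched directly, 1896 by an older symbol and 480 not at all. Genes were named by these rules: up to 12 highest and 12 lowest called genes of mean log2-CPM of at least 3 without overlap; the 5 with the smallest adjusted p in each direction; up to 3 called members of smallest adjusted p of each list; 6 called genes for each 8mer; and a panel of 20. Predicted and small RNA genes were passed over in the first 2 rules. Other called list members were named after their values were seen. The members, the 34 gene lists and the 9 lists of cell type markers were chosen with earlier results of these data known. Some genes that the rules name are not reported here.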

Additional observations from a re-analysis of the deposited data

Results flagged for a closer look

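In 8 of the 200 groups of 4 libraries examined (4.0%), 1 library stood apart from the other 3, measured by Dixon's ratio of its gap to the nearest library over the range of the group, past the 95% critical value. Chance flags about 1 in 20 groups. In the miR-27a group, replicate 4 was the highest library for Epcam (11.3 CPM, ratio 0.832) and Cxadr (10.4 CPM, 0.938) and the lowest for Rps29 (72.1 CPM, 0.918). Replicate 3 of that group was the highest for Cdkn2a (5.35 CPM, 0.948), a cell cycle inhibitor called lower with miR-23a. In the miR-23a group, replicate 1 was the highest for Calm3 (207 CPM, 0.871) and the lowest for Socs2 (278 CPM, 0.878) and Maf (77.6 CPM, 0.946), and replicate 4 was the lowest for Cd27 (26.4 CPM, 0.874). Epcam and Rps29 kept their calls without each replicate number in turn. Cdkn2a was low, at no more than 0.459 CPM with miR-23a. Only 3 of the fits that left out a replicate number tested it, and its call was lost without replicate 1 or 2. Maf was not called.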

How the results depend on the processing

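Against 428 called genes (144 higher, 284 lower, 71 list members, 80 lower with a miR-23a 8mer and 50 higher with a miR-27a 8mer), the fit without the replicate block gave 37, 7, 30, 6, 16 and 3. DESeq2 gave 680, 242, 438 and 108 for the first 4, no filter 790, 322, 468 and 120, and limma 886, 321, 565 and 132, with 127 lower genes that hold a miR-23a 8mer. Replicates 3 and 4 alone gave 214, 77, 137, 33, 37 and 21. Thinned counts gave 184 lower and the shortest UTR 50 lower with a miR-23a 8mer. Leaving out 1 replicate number gave 77 to 982 called, 22 to 405 higher, 55 to 577 lower, 12 to 145 list members, and 20 to 110 and 5 to 71 with 8mers. Of the 428, DESeq2 called 428, limma 427, all 16 libraries 332 and the fit without the block 37. Calls that were higher made up 33.6% in the main result, 40.8% without the filter, 39.9% thinned, 41.2% without replicate 4 and 18.9% without the block. The 428 genes kept their sign wherever tested, and the site medians moved by less than the spread between pairs. Of 85 called genes named by the rule, 29 kept their calls without each replicate number and 16 without the block. Depth of miR-27a replicates 1 and 2 limits low genes, and no test was made of single mimics against control.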
